A study of Oryza sativa with 6 samples.

Results

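The array carried 33 probes for microRNA156 (miR156) of rice and 15 probes for 10 loci of SQUAMOSA PROMOTER-BINDING PROTEIN-LIKE (SPL) transcription factors, and these 48 probes of 42477 are described here across all 6 arrays. The miR156 probes were taken by their name, which covers 11 precursors (miR156a to miR156i, miR156k and miR156l) with 1 probe each for 3 tags, Mature, 3'seq and 5'seq. The SPL loci were taken by locus number as OsSPL2 (Os01g0922600), OsSPL3 (Os02g0139400), OsSPL4 (Os02g0174100), OsSPL7 (Os04g0551500), OsSPL11 (Os06g0663500), OsSPL12 (Os06g0703500), OsSPL13 (Os07g0505200), OsSPL14 (Os08g0509600), OsSPL16 (Os08g0531600) and OsSPL18 (Os09g0507100), on chromosomes 1, 2, 2, 4, 6, 6, 7, 8, 8 and 9. Only members whose Cy3 or Cy5 signal stood well above background on 3 or more of the 6 arrays were tested, which left 22 miR156 probes and 9 SPL loci among 23498 genes tested. By tag, 11 of 11 5'seq probes passed, 9 of 11 3'seq probes and 2 of 11 Mature probes.

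miR156 is a conserved plant microRNA whose level is high in young plants and declines as they age. It pairs with a site in the transcripts of many SPL genes, which leads to cleavage of the transcript or blocks its translation, and the SPL proteins promote the change from the juvenile to the adult phase. In rice the same factors are known for their effects on tillering, panicle branching and grain shape, and OsSPL3 and OsSPL12 also for effects on crown root development.

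The study exposed rice roots to hexavalent chromium, Cr(VI), a toxic and strongly oxidizing form of the metal, and asked how transcript levels after a short exposure compared with those after a long one. All roots came from seedlings of cultivar TN-67 aged 6 days. In the short group the Cr(VI) dose was 50 µM and material from 1 h and 3 h was pooled, and in the long group the same dose was given for 24 h, with 3 biological replicates a group. On every array RNA from treated roots carried the dye Cy5 and RNA from roots kept in water carried Cy3, so each array gives a ratio of treated over water, and no dye was swapped.

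Each array held 43734 spots, of which 68.1% to 82.5% were well above background in Cy3 and 73% to 80.3% in Cy5, and none was saturated. The short replicate 1 lay on slide 1, the short replicates 2 and 3 on slide 2 and the long arrays on slide 3, so slide and exposure cannot be told apart. Across genes, which are not independent replicates, the log2 ratios correlated at 0.881 to 0.923 among short arrays, at 0.915 to 0.959 among long arrays and at 0.524 to 0.631 between the groups. The files carry no gene names for the loci beyond their numbers, so the tissue label was not checked against marker genes. In bulk roots, fewer cells of a type and less RNA per cell cannot be told apart.

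After the short exposure, 11 of the 22 tested miR156 probes were higher than in water, 1 was lower and 10 did not pass (limma, Benjamini-Hochberg adjusted p under 0.05). The median log2 ratio over the 22 probes was 0.16, beside 0.02 over all genes tested and 0.08 over all 265 tested microRNA probes. Of all genes, 54.7% passed in that comparison, 30.6% higher and 24.2% lower. The share of miR156 probes that passed was near that of all genes, at 54.5%, with 50% of them higher and 4.55% lower. Of the 265 microRNA probes, which include these 22, 39.6% passed, 31.7% higher and 7.92% lower. The shares were not tested against each other. At 24 h, 10 miR156 probes were higher, 1 was lower and 11 did not pass. That made 50% in all, beside 64.6% of all genes (33.7% higher and 30.9% lower). Of all microRNA probes 43.4% passed at 24 h, 28.7% higher and 14.7% lower. The median at 24 h was 0.14 over the miR156 probes, beside 0.02 over all genes and 0.03 over all microRNA probes. With these settings no miR156 probe reached 2-fold in either group. Agilent's processed signals gave mean log2 ratios at 24 h of 1.66 for miR156b 3'seq and 1.76 for miR156l 3'seq. They gave 1.07 for miR156b 3'seq after the short exposure, but there its water signal was at background throughout. Its treated signal rose clear of background on only 1 short array, so that short value is not counted as a 2-fold change. With each array centred on its median in place of loess, 7 probes passed after the short exposure and 7 at 24 h, in both cases 6 higher and 1 lower, and at 24 h the processed signals gave 9 higher and 4 lower.

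Both the 5'seq and the 3'seq probes held the higher calls. After the short exposure 6 of 11 5'seq probes and 5 of 9 3'seq probes rose, and at 24 h 5 of each did. The 1 probe that fell, miR156g 3'seq, carried a 3'seq tag. Neither tested Mature probe passed: miR156g Mature had mean log2 ratios of -0.10 and -0.11 for the short and the 24 h group, and miR156k Mature had -0.09 and -0.13. The miR156g Mature signal in Cy5 was not well above background on any 24 h array. Both were called lower at 24 h with the processed signals, miR156k Mature at -0.65 (adjusted p = 0.033), and no value is given for miR156g Mature because its treated signal there was at background.

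**Figure D1:**
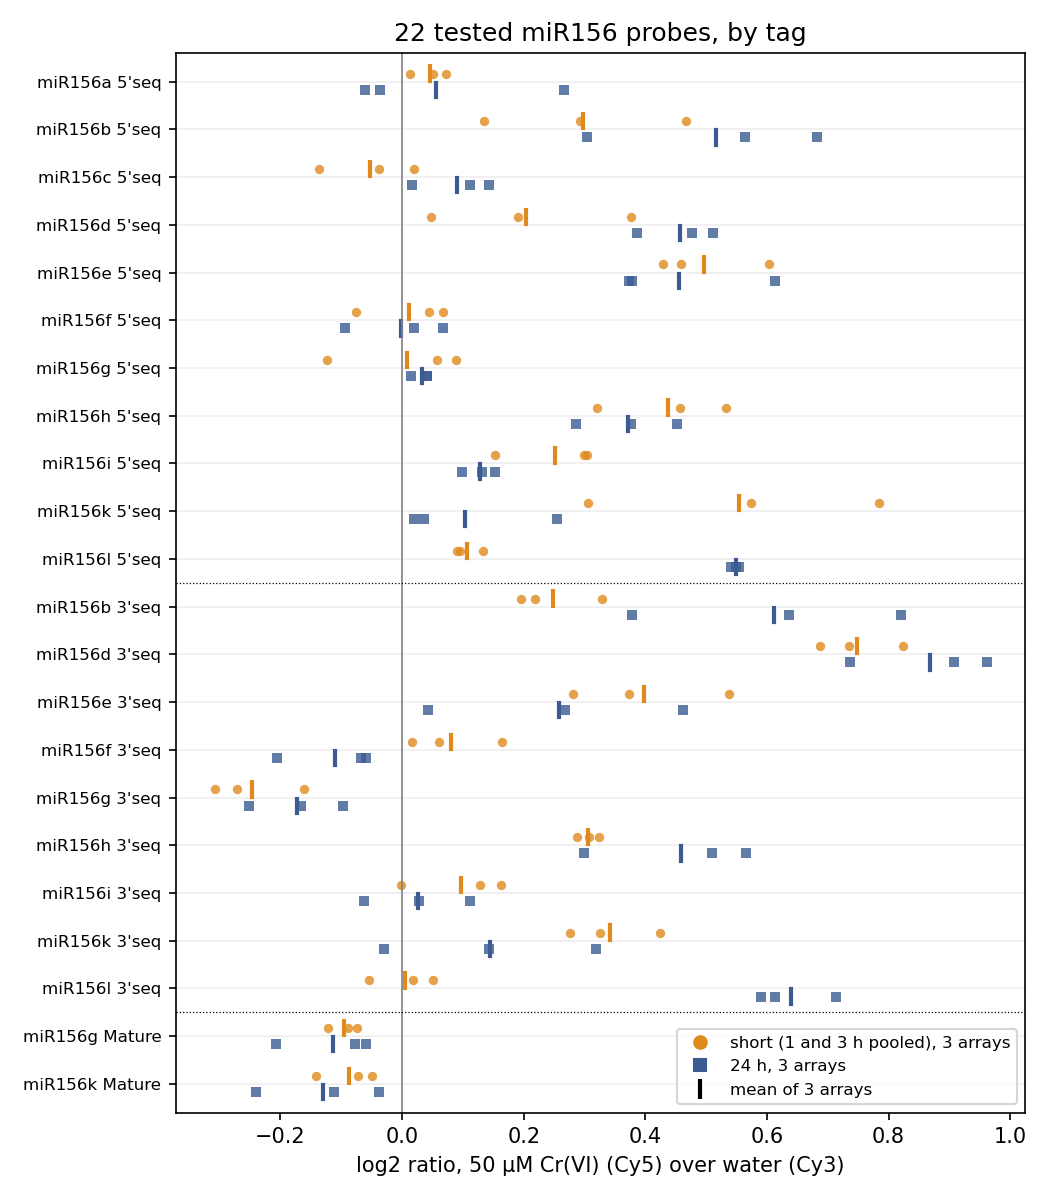
Log2 ratio of Cr(VI)-treated (Cy5) over water (Cy3) signal on each array for the 22 tested miR156 probes, with 3 short arrays (circles), 3 arrays of 24 h (squares) and the mean of each group (bars). The miR156l probes lie near 0 after the short exposure and at 0.54 to 0.71 at 24 h, the miR156d 3'seq probe lies at 0.69 to 0.96 on all 6 arrays, and miR156g 3'seq is below 0 on all 6.

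The miR156d 3'seq probe was higher in both groups. Its log2 ratios were 0.82, 0.69 and 0.73 on the short arrays and 0.74, 0.91 and 0.96 at 24 h, so all 6 arrays lay well above 0 and the groups overlapped. The means were 0.75 ± 0.07 (SD, n = 3, limma adjusted p = 3.4e-05) and 0.87 ± 0.12 (SD, n = 3, adjusted p = 7.9e-06), equal to 1.68-fold and 1.83-fold. Among all genes, 9.08% had a larger absolute ratio after the short exposure and 11% at 24 h. The 5'seq probe of the same precursor gave 0.05, 0.19 and 0.38 after the short exposure and 0.48, 0.51 and 0.39 at 24 h, with adjusted p of 0.038 and 0.00056 in limma. With these settings it lay below the 3'seq probe on each array, by 0.26 to 0.78. On the short arrays the water signal of the 5'seq probe was well above background on 1 of 3. The 2 groups of miR156d 5'seq did not overlap, but their difference of 0.25 did not pass (adjusted p = 0.078), although it did without short replicate 3 (0.34, adjusted p = 0.04). The short call of miR156d 5'seq was lost without short replicate 2 (0.21, adjusted p = 0.092), short replicate 3 (0.12, adjusted p = 0.26), long replicate 1 (0.20, adjusted p = 0.054) or long replicate 2 (0.20, adjusted p = 0.057), and with the processed signals (0.48, adjusted p = 0.2). That call was also lost with median centring (0.13, adjusted p = 0.34) and with the replicate number as a block (0.20, adjusted p = 0.074).

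Both miR156l probes passed at 24 h and neither did after the short exposure. The miR156l 5'seq ratios were 0.10, 0.09 and 0.13 on the short arrays and 0.54, 0.55 and 0.55 on the 24 h arrays. The groups did not overlap, and the 24 h arrays lay closer together than the short ones. The difference between the groups was 0.44 ± 0.07 (SE, limma adjusted p = 0.0019), the mean at 24 h was 1.46-fold (adjusted p = 3e-05), and the short mean did not pass (adjusted p = 0.11). The miR156l 3'seq ratios were 0.05, 0.02 and -0.05 on the short arrays and 0.71, 0.61 and 0.59 at 24 h. On the short arrays this probe was at background in both dyes, so no fold is given there, and at 24 h Cy5 was well above background on 3 arrays and Cy3 on 2. It therefore entered the test only through its 24 h arrays, and its distance from the short arrays is a description that supports no difference between the groups. The mean at 24 h was 0.64 ± 0.07 (SD, n = 3, adjusted p = 2.2e-05). With an offset of 16 in place of 50 and nothing else changed, the miR156l 3'seq mean at 24 h was 0.96 (adjusted p = 1e-05). The processed signals have another background correction and dye normalization, and with them it was 1.76 (adjusted p = 0.00025) and that of miR156l 5'seq was 0.85 (adjusted p = 0.0016).

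The miR156k 5'seq probe ran the other way, with ratios of 0.31, 0.78 and 0.57 on the short arrays and 0.26, 0.02 and 0.04 at 24 h. The groups did not overlap, but short replicate 1, the lowest of its group, lay close to long replicate 1, the highest of the other. Its short mean was 0.55 ± 0.24 (SD, n = 3, limma adjusted p = 0.0013), its mean at 24 h was 0.10 (adjusted p = 0.35), and the difference was -0.45 ± 0.13 (SE, adjusted p = 0.026). That difference missed the threshold without short replicate 2 (-0.34, adjusted p = 0.066), short replicate 3 (-0.44, adjusted p = 0.07), long replicate 2 (-0.41, adjusted p = 0.088) or long replicate 3 (-0.42, adjusted p = 0.067). On short replicate 1 alone, without the short arrays on slide 2, the short value was 0.31. The miR156k 3'seq probe rose after the short exposure to 0.42, 0.28 and 0.33 (adjusted p = 0.0046) and gave -0.03, 0.14 and 0.32 at 24 h (adjusted p = 0.12). Without long replicate 1, its mean at 24 h was 0.23 (adjusted p = 0.038). Its difference, -0.20, did not pass (adjusted p = 0.17).

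Both miR156b probes were higher in both groups. For miR156b 5'seq the ratios were 0.14, 0.29 and 0.47 on the short arrays (mean 0.30, limma adjusted p = 0.02) and 0.56, 0.68 and 0.30 at 24 h (mean 0.52, adjusted p = 0.00094). For miR156b 3'seq they were 0.22, 0.20 and 0.33 (mean 0.25, adjusted p = 0.033) and 0.64, 0.82 and 0.38 (mean 0.61, adjusted p = 0.00026), and its groups did not overlap. None of the short arrays had a miR156b 3'seq water signal well above background, and 1 of the 3 had such a treated signal. On the other short arrays both dyes were at background, so no bound on the fold of this probe is given. Its means were 1.07 (adjusted p = 0.0021) and 1.66 (adjusted p = 0.00029) with the processed signals, where the difference of 0.60 did not pass (adjusted p = 0.074). Its difference of 0.36 ± 0.12 (SE, adjusted p = 0.039) missed the threshold without any of short replicates 1, 2 and 3 or long replicates 1 and 2, with adjusted p of 0.095, 0.09, 0.062, 0.095 and 0.13. The 24 h arrays of this probe alone met the filter and its short arrays alone did not. Its difference is therefore a description that supports no difference between the groups. Its short call was lost without short replicate 1 (0.26, adjusted p = 0.085), 2 (0.27, adjusted p = 0.062) or 3 (0.21, adjusted p = 0.16) and with median centring (0.16, adjusted p = 0.29). The short call of miR156b 5'seq was lost without short replicate 2 (0.30, adjusted p = 0.057) or 3 (0.21, adjusted p = 0.13) and with median centring (0.27, adjusted p = 0.054).

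The probes of miR156e and miR156h were higher in both groups, at similar sizes. The miR156e 5'seq ratios were 0.60, 0.43 and 0.46 after the short exposure (limma adjusted p = 0.00048) and 0.37, 0.38 and 0.61 at 24 h (adjusted p = 0.00049). For miR156e 3'seq they were 0.54, 0.28 and 0.37 (adjusted p = 0.0048) and 0.04, 0.27 and 0.46 (adjusted p = 0.028). The latter call was lost without long replicate 2 (0.25, adjusted p = 0.1) or long replicate 3 (0.16, adjusted p = 0.17). The miR156h 5'seq ratios were 0.53, 0.32 and 0.46 (adjusted p = 0.00061) and 0.29, 0.38 and 0.45 (adjusted p = 0.00095), and those of miR156h 3'seq were 0.29, 0.32 and 0.31 (adjusted p = 0.0041) and 0.30, 0.57 and 0.51 (adjusted p = 0.00031). All 24 of these values lay above 0, and the groups overlapped for each probe. With median centring the means at 24 h were 0.20 for miR156e 5'seq (adjusted p = 0.098), 0.11 for miR156e 3'seq (adjusted p = 0.38), 0.10 for miR156h 5'seq (adjusted p = 0.42) and 0.21 for miR156h 3'seq (adjusted p = 0.11), so none of these calls held under it.

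Of the remaining probes that passed, miR156i 5'seq was higher after the short exposure, at 0.30, 0.15 and 0.30 (limma adjusted p = 0.0056), and did not pass at 24 h, at 0.10, 0.13 and 0.15 (adjusted p = 0.077). Its groups did not overlap, but the difference of -0.12 did not pass (adjusted p = 0.25). The miR156g 3'seq ratios were -0.31, -0.27 and -0.16 on the short arrays (mean -0.25, adjusted p = 0.0077) and -0.17, -0.10 and -0.25 at 24 h (mean -0.17, adjusted p = 0.031), all below 0. Its call at 24 h was lost without long replicate 1 (-0.17, adjusted p = 0.088) or long replicate 3 (-0.13, adjusted p = 0.14). The other 6 tested probes (miR156a, miR156c, miR156f and miR156g 5'seq, miR156f and miR156i 3'seq) passed in neither exposure nor in the difference between them, with means between -0.11 and 0.10. With the processed signals, miR156f 3'seq was called lower at 24 h (-0.31, adjusted p = 0.048).

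The 11 miR156 probes left untested were the 3'seq probes of miR156a and miR156c and 9 Mature probes. Each was well above background in either dye on at most 2 of the 6 arrays. Without the filter, miR156c 3'seq was called higher in both groups (0.22, limma adjusted p = 0.016, and 0.34, adjusted p = 0.001) and the other 10 passed in neither group.

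Within a precursor, the 3'seq and 5'seq ratios could be compared array by array for 9 precursors. With these settings the 3'seq ratio was higher on all 6 arrays for miR156d only. It was lower on all 6 for miR156e (by 0.07 to 0.33), miR156g (by 0.11 to 0.36) and miR156i (by 0.02 to 0.31). The order changed between arrays for miR156b, miR156f, miR156h, miR156k and miR156l. On the short arrays, miR156l 3'seq was at background in both dyes and miR156b 3'seq in water. The order in those precursors there is therefore not a comparison of transcripts. The miR156d order depended on the processing. With the processed signals its means at 24 h were 0.84 for 3'seq and 0.95 for 5'seq, and after the short exposure 0.77 and 0.48. Probes of 1 precursor were read from the same RNA on the same arrays and are not replicates.

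Of the SPL loci, fewer passed after the short exposure than at 24 h. After the short exposure 2 of 9 tested loci rose, OsSPL4 and OsSPL14, and none fell, or 22.2% beside the 54.7% of all genes that passed. At 24 h OsSPL2, OsSPL4 and OsSPL18 were higher, OsSPL3, OsSPL11, OsSPL12 and OsSPL14 were lower, and OsSPL13 and OsSPL16 did not pass, or 77.8% beside 64.6% of all genes. The median log2 ratio was -0.01 after the short exposure and -0.19 at 24 h. By locus, 5 of 9 passed at 24 h only, beside 23.9% of all genes, and 1 passed in opposite directions, beside 4.81%. With the processed signals 6 loci passed after the short exposure, where 13403 of all 23498 genes did. OsSPL4 and OsSPL14 were higher. OsSPL3 (-0.33, adjusted p = 0.021) and OsSPL12 (-0.30, adjusted p = 0.0079) were lower. So were OsSPL13 (-0.39, adjusted p = 0.027) and OsSPL16 (-0.37, adjusted p = 0.043). With median centring the split at 24 h was 2 higher and 6 lower, since OsSPL2 no longer passed and OsSPL13 and OsSPL16 did.

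**Figure D2:**
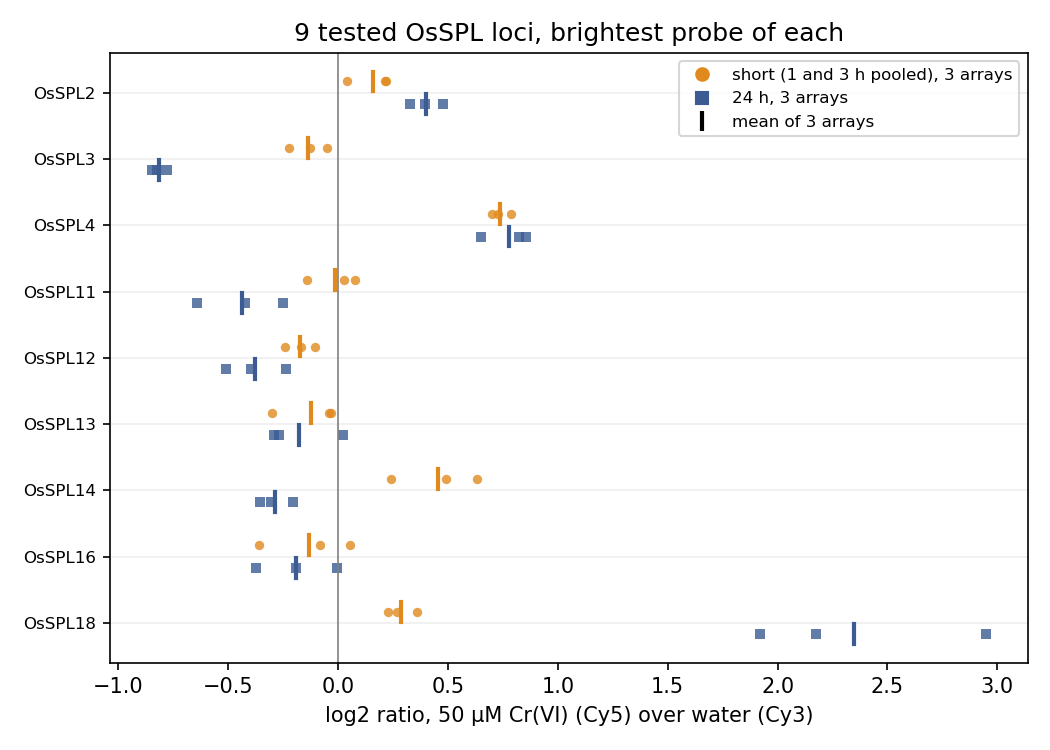
Log2 ratio of Cr(VI)-treated (Cy5) over water (Cy3) signal on each array for the 9 tested OsSPL loci, read by the brightest probe of each, with 3 short arrays (circles), 3 arrays of 24 h (squares) and the mean of each group (bars). OsSPL18 lies at 1.92 to 2.95 at 24 h and at 0.23 to 0.36 after the short exposure, while OsSPL3 lies at -0.85 to -0.78 at 24 h and OsSPL14 on opposite sides of 0 in the 2 groups.

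OsSPL18, a regulator of grain size in rice, was the only SPL locus that changed at least 2-fold with these settings. With an offset of 16 and with the processed signals OsSPL3 also passed 2-fold at 24 h. The OsSPL18 log2 ratios were 0.27, 0.36 and 0.23 on the short arrays and 1.92, 2.17 and 2.95 at 24 h, with no overlap between the groups. The mean at 24 h was 2.35 ± 0.54 (SD, n = 3, limma adjusted p = 5.4e-06), or 5.09-fold, and 1.37% of all genes had a larger absolute ratio. The short mean of 0.28 did not pass (adjusted p = 0.16), although it did without long replicate 3 (adjusted p = 0.0092), the 24 h array with the highest value, which widens the spread that both groups share. The difference between the groups was 2.06 ± 0.23 (SE, adjusted p = 3e-04). By channel, the treated log2 signal averaged 10.17 on the short arrays and 12.74 at 24 h, while the water signal averaged 9.88 and 10.40.

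OsSPL3 was lower at 24 h. Its ratios were -0.22, -0.13 and -0.05 on the short arrays and -0.78, -0.82 and -0.85 at 24 h, and all 6 lay below 0 with the groups apart. The mean at 24 h was -0.82 ± 0.04 (SD, n = 3, limma adjusted p = 6e-06), so water was 1.76-fold over treated, and 12.3% of all genes had a larger absolute ratio. The short mean of -0.13 did not pass (adjusted p = 0.075), and the difference was -0.68 ± 0.08 (SE, adjusted p = 4e-04). The treated log2 signal averaged 7.86 on the short arrays and 6.96 at 24 h, and the water signal 7.99 and 7.78. With the processed signals the mean at 24 h was -1.50 (adjusted p = 7.4e-05) and the difference -1.17 (adjusted p = 0.0022).

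OsSPL14, known as IPA1 and WFP for its effect on plant architecture and panicle branching, was the 1 locus called in opposite directions. Its ratios were 0.49, 0.24 and 0.63 on the short arrays and -0.30, -0.36 and -0.20 at 24 h, on either side of 0. The short mean was 0.46 ± 0.20 (SD, n = 3, limma adjusted p = 0.0015), the mean at 24 h was -0.29 ± 0.08 (SD, n = 3, adjusted p = 0.011), and the difference was -0.74 ± 0.11 (SE, adjusted p = 0.0013). The treated log2 signal averaged 9.51 and 8.97, and the water signal 9.06 and 9.26. The call at 24 h was lost without long replicate 1 (-0.28, adjusted p = 0.05) or long replicate 2 (-0.25, adjusted p = 0.072). With the processed signals the value at 24 h was -0.08 (adjusted p = 0.62) and the difference -0.49 (adjusted p = 0.079), while the short rise held at 0.41 (adjusted p = 0.032).

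OsSPL11 gave -0.14, 0.03 and 0.08 on the short arrays and -0.64, -0.25 and -0.42 at 24 h, with no overlap. The mean at 24 h was -0.44 ± 0.20 (SD, n = 3, limma adjusted p = 0.0016) and the difference -0.43 ± 0.12 (SE, adjusted p = 0.019). That difference missed the threshold without short replicate 3 (-0.38, adjusted p = 0.069) or long replicate 1 (-0.32, adjusted p = 0.058). OsSPL2 was higher at 24 h, with ratios of 0.40, 0.48 and 0.33 (mean 0.40, adjusted p = 0.00054) after 0.22, 0.22 and 0.04 on the short arrays (adjusted p = 0.057). The OsSPL2 groups did not overlap, but the difference of 0.24 did not pass (adjusted p = 0.058), and with median centring the mean at 24 h was 0.19 (adjusted p = 0.11) and the difference 0.04 (adjusted p = 0.84). With array weights, the slide as a random block or the processed signals the OsSPL2 difference passed (adjusted p of 0.023, 0.034 and 0.04).

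**Figure D3:**
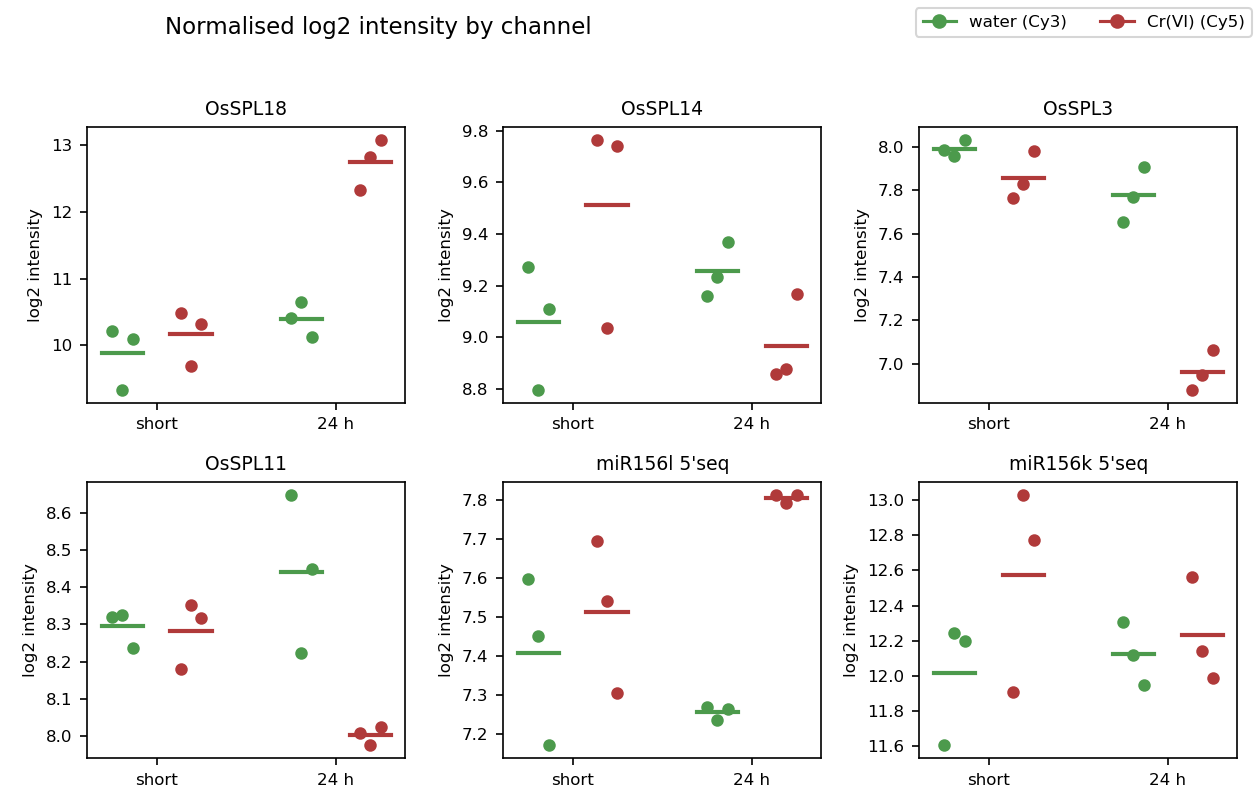
Normalised log2 intensity of the water channel (Cy3) and the treated channel (Cy5) on each array for 6 members whose 24 h and short ratios differed by the limma test, with a bar at the mean of 3 arrays. In OsSPL18, OsSPL3, OsSPL11 and miR156l 5'seq the treated values at 24 h lie apart from the other 3 sets of values.

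The brightest probe of OsSPL12 gave -0.24, -0.11 and -0.17 on the short arrays and -0.24, -0.51 and -0.39 at 24 h, so all were below 0 and the groups overlapped. Its mean at 24 h was -0.38 ± 0.14 (SD, n = 3, limma adjusted p = 0.0011), the short mean was -0.17 (adjusted p = 0.056), and the difference of -0.21 did not pass (adjusted p = 0.12). The short value passed without long replicate 1 (adjusted p = 0.044), with the slide as a random block (adjusted p = 0.043) and with a trended, robust prior (adjusted p = 0.045). With every probe tested on its own, all 3 OsSPL12 probes were lower at 24 h, at -0.38, -0.33 (adjusted p = 0.0079) and -0.54 (adjusted p = 0.00071), and none passed after the short exposure.

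The 4 probes of OsSPL4 disagreed. The brightest, AK062651, gave 0.79, 0.73 and 0.70 on the short arrays and 0.65, 0.82 and 0.86 at 24 h, or 1.67-fold (limma adjusted p = 2.9e-05) and 1.71-fold (adjusted p = 1.1e-05), with overlapping groups. Of the other probes, tested each on its own, AK068702 was higher after the short exposure only (0.17, adjusted p = 0.037), AK066057 was lower at 24 h only (-0.24, adjusted p = 0.0077), and AK061484 passed in neither group (-0.20, adjusted p = 0.062, and -0.19, adjusted p = 0.065). Averaged over all its probes, AK061484 included, OsSPL4 gave 0.16 after the short exposure (adjusted p = 0.03) and 0.10 at 24 h (adjusted p = 0.13). The call of OsSPL4 as higher at 24 h therefore holds for 1 of its 4 probes.

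**Figure D4:**
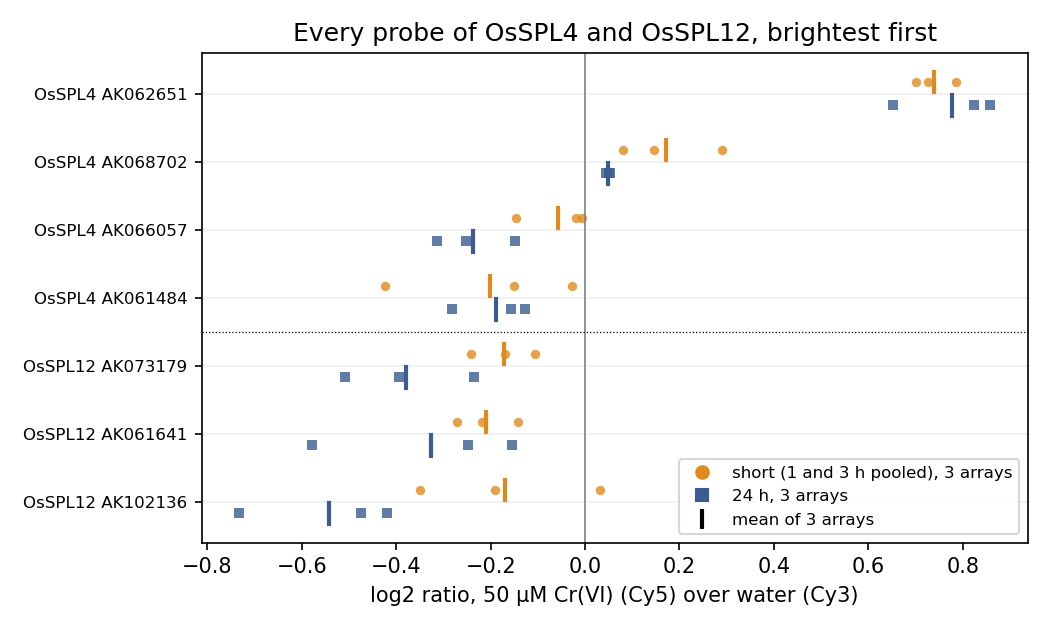
Log2 ratio of Cr(VI)-treated (Cy5) over water (Cy3) signal on each array for the 4 probes of OsSPL4 and the 3 probes of OsSPL12, with 3 short arrays (circles), 3 arrays of 24 h (squares) and the mean of each group (bars). Probe AK062651 of OsSPL4 lies at 0.65 to 0.86 and the other OsSPL4 probes at -0.42 to 0.29, while the OsSPL12 probes lie at or below 0.03.

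OsSPL13, also named GLW7 for its effect on grain length, gave -0.04, -0.30 and -0.03 on the short arrays and -0.27, -0.29 and 0.02 at 24 h, and OsSPL16, which affects grain width, gave -0.36, 0.06 and -0.08, then -0.37, -0.19 and -0.01. Neither passed in either exposure or in the difference, with adjusted p at 24 h of 0.089 and 0.11. The OsSPL13 mean at 24 h of -0.18 became -0.28 without long replicate 3 (adjusted p = 0.025). OsSPL7, a regulator of tillering, was not tested: its only probe was flagged as an outlier spot on 4 of the 6 arrays, leaving ratios of 0.15 and 0.15 on short replicates 2 and 3. With outlier spots kept, a choice made after seeing the data, OsSPL7 gave 0.25, 0.15 and 0.15 on the short arrays (adjusted p = 0.026) and 0.18, 0.17 and 0.32 at 24 h (adjusted p = 0.0083), with a difference of 0.04 (adjusted p = 0.72).

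The difference between the groups, 24 h minus short, passed for 4 of 22 miR156 probes and 4 of 9 SPL loci. Of all genes 38.7% passed, 16.4% higher at 24 h and 22.3% lower. Of all 265 tested microRNA probes 14% passed, 6.42% higher and 7.55% lower. Higher at 24 h were miR156l 3'seq, miR156l 5'seq, miR156b 3'seq and OsSPL18, and lower were miR156k 5'seq, OsSPL3, OsSPL11 and OsSPL14. The miR156l 3'seq and miR156b 3'seq calls are counted here as the test gave them. On the short arrays miR156l 3'seq was at background in both dyes, and miR156b 3'seq was so in water. The SPL loci with a lower ratio made up 33.3% of those tested. The miR156 count was 2 without short replicate 2 and 2 without long replicate 2. With the processed signals the split was 2 higher and 1 lower for the miR156 probes and 2 and 2 for the SPL loci. Of the miR156 probes, 9 passed the same way in both groups, 3 in the short group only and 2 at 24 h only, and none in opposite directions, beside 35.9% of all genes that passed the same way in both.

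**Figure D5:**
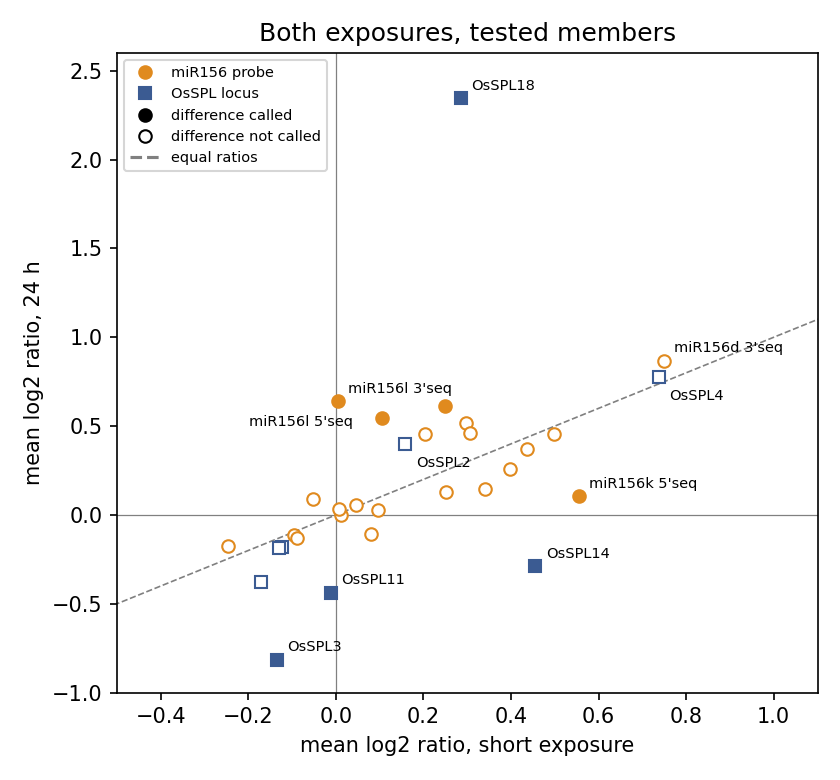
Mean log2 ratio at 24 h against the mean log2 ratio after the short exposure for the 22 tested miR156 probes (circles) and the 9 tested OsSPL loci (squares), filled where limma called the difference and with a dashed line where both ratios are equal. The points farthest from the line in this plot are OsSPL18 (2.35 against 0.28), OsSPL14 (-0.29 against 0.46) and OsSPL3 (-0.82 against -0.13).

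Since each ratio has its own water sample, the water channels of both groups were set against each other. In log2 Cy3, 2 of 22 miR156 probes and 1 of 9 SPL loci were lower on the 24 h arrays. Of all 23498 genes 4.5% were called in either direction, 569 higher and 488 lower, and 27.7% had an unadjusted limma p under 0.05. The miR156c 5'seq water signal differed by -1.25 on the log2 scale (limma adjusted p = 0.033), that of miR156g 3'seq by -0.91 (adjusted p = 0.035), and that of the brightest OsSPL4 probe by -0.93 (adjusted p = 0.039). None of those 3 members passed the test of the difference in ratio, with differences of 0.14, 0.07 and 0.04. The miR156 count was 0 without short replicate 3 or any one of the long arrays, 1 without short replicate 2 and 5 without short replicate 1, the SPL count was 0 without short replicate 3 or any one of the long arrays, and median centring of Cy3 gave 7 and 2. Of the 8 members called for the difference in ratio, none passed in the water channel. OsSPL3 had the smallest unadjusted limma p among them (-0.32, unadjusted p = 0.018, adjusted p = 0.11). For miR156l 3'seq and miR156b 3'seq the water signal was at background on the short arrays, so a water difference could not be measured. Since no gene passed once certain single arrays were left out, a missing call does not show that water levels were equal.

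Probes for other parts of the pathway that carry names in the files were those of miR529, which pairs with some of the same SPL transcripts, and of miR172, which acts downstream of SPL factors on AP2-like transcripts. Of 3 miR529 probes 2 were tested, and miR529 5'seq was higher after the short exposure (0.20, 0.25 and 0.07, limma adjusted p = 0.034) and did not pass at 24 h (adjusted p = 0.28). The miR529 5'seq water signal was well above background on 1 of the 3 short arrays and its treated signal on 2. Of 12 miR172 probes 2 were tested. The miR172a 3'seq probe was lower at 24 h, with ratios of -0.52, -0.66 and -0.42 (mean -0.54, adjusted p = 0.00021) after -0.09, -0.33 and -0.13 on the short arrays (adjusted p = 0.053), a difference of -0.35 (adjusted p = 0.023). Its treated signal was well above background on 1 of the 3 arrays of 24 h. The miR172a 5'seq probe did not pass.

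The genes with ratios most like those of the brightest tested miR156 probe, miR156d 3'seq, over the 6 arrays were Os08g0331400, Os11g0131100 and Os12g0161100, with root mean square differences in log2 ratio of 0.05, 0.06 and 0.06. For the brightest tested SPL member, OsSPL4 by probe AK062651, they were Os05g0468900, Os04g0616500 and Os09g0572100, at 0.05, 0.06 and 0.06. Each was compared with 22499 other genes. The miR156d 3'seq probe and OsSPL4 probe AK062651 were each the 5th nearest to the other, at 0.07, a pair singled out after its values were seen.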

How the data were processed

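RNA was amplified linearly and labelled with Cy5 (treated) or Cy3 (water), per the labels' protocols. The deposited intensity values are median spot brightness from Agilent Feature Extraction, version 10.7.1.1, as the file headers and deposited columns show. The log10 ratios deposited beside them, per the file headers computed by that software, served only to check the direction. The authors' deposited table holds log2 ratios that match processed red over processed green, uncentred, with column medians of -0.0118, -0.161 and -0.178 (short) and 0.000319, -0.0789 and 0.0385 (24 h). From the medians, normexp (offset 50) and loess within each array were run with control and outlier spots at weight 0 (limma 3.58.1, R 4.3.3). Outlier spots were left out, spots of a probe were averaged, and the brightest probe stood for a locus. At least 2 values per exposure were required. One limma fit over 6 arrays tested both exposures and their difference, with p-values adjusted by Benjamini-Hochberg across the 23498 tested genes (4 residual and 4.36 prior degrees of freedom). Channel values followed loess and Aquantile, and the control channel was tested after quantile normalization. The number of arrays limits the precision, and with 1 dye orientation a probe's dye bias adds to each ratio. The pipeline was tested on simulated arrays.

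The members, lists and comparisons were chosen with earlier results of these data known. Each tested member is named, with values per array where it passed in any comparison, and likeness took the 3 nearest genes. None of the 10 locus numbers matched the reference table, which lists 8 of the 10 SPL symbols on the expected chromosome, so the SPL names are those of the selection rule. Which transcript a probe with the tag Mature, 3'seq or 5'seq reads is not given in the sources used here. Other planned lists hold loci without names in the files and were not used.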

Additional observations from a re-analysis of the deposited data

Results flagged for a closer look

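The ratio differed between the 24 h and the short group by limma's test of the difference itself for 8 members (24 h minus short, log2). The difference was higher for OsSPL18 (2.06), miR156l 3'seq (0.63), miR156l 5'seq (0.44) and miR156b 3'seq (0.36). It was lower for OsSPL14 (-0.74), OsSPL3 (-0.68), miR156k 5'seq (-0.45) and OsSPL11 (-0.43). For each of the 8, the 3 short and the 3 long arrays did not overlap. These members were picked by that difference, so the separation adds no support, and its share over all genes is not given. The groups also lay apart for miR156d 5'seq, miR156f 3'seq, miR156i 5'seq and OsSPL2, whose differences did not pass. The miR156l 3'seq probe was at background in both dyes on the short arrays and entered the test only through its 24 h arrays, so its difference is a description and supports nothing. The miR156b 3'seq water signal was at background on the short arrays too, and its treated signal stood well above background on 1 of them. Its 24 h arrays alone met the filter, so its difference is likewise only a description. The slides cannot be told apart from the groups. In groups of 3 arrays no array was tested for standing apart.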

How the results depend on the processing

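Of 40 calls of members, 20 held under every alternative run, and no called value changed sign. The SPL count after the short exposure rose from 2 to 6 with Agilent's processed signals and with the deposited value table. It rose to 4 with the slide as a random block (correlation -0.106). Over all genes 12860 were called in the main fit, and 13403, 13485 and 13614 in those runs, in that order. Median centring took the miR156 counts from 12 to 7 (short) and from 11 to 7 (24 h). Of all genes it called 9772 after the short exposure, where loess called 12860. It shifted the median of all genes by -0.11 at 24 h and by -0.14 in the difference, and of all genes at 24 h it called 5009 higher and 8729 lower, where loess called 7916 and 7269. Without the short arrays on slide 2, 1 short array is left and is assumed to vary like the others, so counts of calls are not given for that fit. The count of miR156 probes that differed between the groups, 4 at first, was 2 among the 19 probes well above background on all 6 arrays. With the replicate number as a block it was 2, both higher; this block moved no other count of calls by over 1.5 times. Deviations of same-numbered short and long arrays correlated at -0.236, -0.117 and -0.1, and no array correlated best with its own number, so the numbers were not taken as pairs. In the water channel median centring gave 7 miR156 probes and 2 SPL loci in place of 2 and 1. Over all genes it gave 3788 in place of 1057. Leaving out 1 array gave 9 to 12 miR156 probes after the short exposure, 9 to 11 at 24 h, 2 to 3 for the difference and 0 to 5 in the water channel, and for SPL loci 2 to 3, 6 to 8, 3 to 4 and 0 to 1. The water channel gave 0 miR156 calls without short replicate 3 or any 1 of the long arrays, 1 without short replicate 2 and 5 without short replicate 1, while over all genes it gave 0 to 3948. The causes were not tested. With an offset of 16 in place of 50 the miR156l 3'seq mean at 24 h was 0.96 and that of miR156b 3'seq was 0.94.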
